A study of Mus musculus with 17 samples.

Results

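The claustrum is a thin sheet of neurons between the insular cortex and the striatum, and it shares a set of marker genes with the neighbouring lateral cortex and with some neurons of the deepest cortical layers. Such genes were followed across the genotypes here: Nr4a2, Gnb4, Lxn, Ntng2 and Lmo3, 5 of the 23062 genes tested and of the 56953 genes in the count table. They were found by symbol, and they had been chosen by their measured values, as markers of this area that appeared lower in PS19 cortex than in the other genotypes. Their levels against PS19 are therefore described without a test, and only WT against CgA-KO/PS19, which the choice did not compare directly, is tested. The choice did look for levels above PS19 in both, so this comparison is not fully free of it.

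RNA came from the prefrontal cortex of mice aged 8 months in the labels (a figure legend of the paper gives a different age), and poly(A) libraries were sequenced from 5 WT mice (B6C3F1/J), 6 hTau mice and 6 CgA-KO/hTau mice. The hTau mice are the PS19 line, called PS19 here, which carries human Tau of the 1N4R isoform with the P301S mutation, driven by the Prnp promoter. This transgene is placed on chromosome 3 in the study's text, and CgA-KO/PS19 mice carry it as well, together with a loss of Chga, the gene of chromogranin A, in the whole body. All 3 genotypes were fed regular chow. The study asked whether loss of chromogranin A alters the cortical transcriptome of PS19 mice.

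Each library held 8838334 to 227651681 counts, with WT replicate 4 the shallowest. The lowest count of any of the 5 genes was 134, for Ntng2 in that library. Chga was 163 ± 11.9 CPM (TMM-normalized counts, scaled per library) in WT (SD, n = 5), 168 ± 6.68 in PS19 (SD, n = 6) and 0 in all 6 CgA-KO/PS19 libraries, and Prnp was 833 ± 71.0, 2119 ± 174 and 1561 ± 321 CPM. Mitochondrial transcripts took 2.56% to 18.2% of the counts and were highest in CgA-KO/PS19 replicate 2. PS19 replicates 4 to 6 were the libraries nearest to each other (scaled median absolute deviation of the log2 ratio 0.0523 to 0.0607 over 3761 well-counted genes), followed by CgA-KO/PS19 replicates 1 and 3 at 0.0980, and each was kept as its own sample. The Y-linked gene Ddx3y exceeded 1 CPM in 9 libraries, the first 3 replicates of each genotype, and sex is not labelled per library. The study counts mice as n, while the labels name replicates alone, so p-values measure the spread between these libraries, part of which may be technical.

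The 5 genes have different jobs. Nr4a2 encodes Nurr1, an orphan nuclear receptor of the NR4A family that is induced by neuronal activity, marks the claustrum and the subplate from early development, and is best known for its role in midbrain dopamine neurons. Lmo3 encodes a LIM-only protein, a cofactor without a DNA-binding domain of its own. Gnb4 encodes a β subunit of heterotrimeric G proteins, Lxn encodes latexin, an inhibitor of carboxypeptidase A, and Ntng2 encodes netrin-G2, a membrane-anchored adhesion protein that binds a netrin-G ligand at synapses.

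On the GRCm38 (mm10) build with GENCODE M21 all 5 are protein-coding genes on the minus strand. Nr4a2 lies at chr2:57106830-57124003, Ntng2 at chr2:29194541-29253005, Gnb4 at chr3:32580332-32616585, Lxn at chr3:67457998-67463926 and Lmo3 at chr6:138362918-138581968. Gnb4 and Lxn thus share a chromosome with the transgene, which CgA-KO/PS19 mice carry too. RefSeq sequence upstream of the start was matched for 4 of the 5 genes. The 250 bases before the starts of Nr4a2 (chr2:57124004-57124253, minus strand) and Lmo3 (chr6:138581969-138582218, minus strand) are shown, because these genes behaved most differently in CgA-KO/PS19. Capitals mark matches to the motifs searched for on both strands.

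Nr4a2: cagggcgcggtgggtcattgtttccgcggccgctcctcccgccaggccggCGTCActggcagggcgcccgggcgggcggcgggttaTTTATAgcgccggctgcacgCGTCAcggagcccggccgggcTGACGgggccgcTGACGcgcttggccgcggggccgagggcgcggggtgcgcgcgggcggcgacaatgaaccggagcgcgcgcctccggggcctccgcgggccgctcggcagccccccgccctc

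Lmo3: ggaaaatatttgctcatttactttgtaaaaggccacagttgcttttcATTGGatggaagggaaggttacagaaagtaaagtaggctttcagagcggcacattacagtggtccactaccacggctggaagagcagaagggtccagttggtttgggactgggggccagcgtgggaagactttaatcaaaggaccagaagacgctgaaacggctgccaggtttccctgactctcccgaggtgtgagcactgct

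The Nr4a2 window was 80.0% G and C. It held 4 matches to TGACG, the core letters of the cAMP response element, with first bases at -200, -144, -123 and -111 from the start, and TATAAA on the opposite strand at -164. TGACG occurred in 17.8% of 32851 mouse promoter windows of the same length and TATAAA in 12.4%. The full cAMP response element TGACGTCA (1.55% of windows) and AAAGGTCA, the element bound by NR4A receptors (1.34%), were found in none of the 4 windows. The Lmo3 window was 50.0% G and C and held CCAAT, on the opposite strand at -203, which 33.8% of windows contain and which the Ntng2 window also held. A match is a description of letters, and binding to these windows was not examined.

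Nr4a2 had the widest range of the 5 genes as the ratio of the highest to the lowest library, 19.3. It measured 78.4, 50.4, 48.0, 63.2 and 81.2 CPM in WT replicates 1 to 5. In PS19 the lowest library was at 9.22, the median was 11.8 and the highest, replicate 1, was at 48.7 CPM. In CgA-KO/PS19 the values ran from 89.1 to 178 CPM with a median of 133. The lowest CgA-KO/PS19 library exceeded the highest WT and PS19 libraries, and PS19 replicate 1 alone reached into the WT range. The mean CPM was 64.2 ± 15.4 for WT (SD, n = 5), 17.8 ± 15.4 for PS19 (SD, n = 6) and 132 ± 32.5 for CgA-KO/PS19 (SD, n = 6), so the WT mean was 3.62 times and the CgA-KO/PS19 mean 7.44 times that of PS19. PS19 without replicate 1 was 11.6 ± 2.91 CPM (SD, n = 5), and the ratios were then 5.54 and 11.4.

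Gnb4 measured 72.4, 36.0, 60.2, 25.7 and 45.2 CPM in the WT replicates. In PS19 it ran from 14.7 to 39.3 CPM with a median of 16.3, and in CgA-KO/PS19 from 36.3 to 67.4 CPM with a median of 53.0. The highest PS19 library was again replicate 1, and the other 5 were at most 20.2 CPM, under every WT and CgA-KO/PS19 library. WT averaged 47.9 ± 18.7 (SD, n = 5), PS19 20.3 ± 9.50 (SD, n = 6) and CgA-KO/PS19 52.1 ± 14.0 CPM (SD, n = 6).

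Lxn measured 24.7, 24.6, 19.9, 23.2 and 22.3 CPM in WT, the tightest group of the 5 genes in that genotype. PS19 libraries ran from 14.8 to 21.3 CPM (median 16.3) and CgA-KO/PS19 libraries from 19.7 to 39.1 CPM (median 28.3). Among the PS19 libraries only replicate 1 overlapped the other genotypes. CgA-KO/PS19 replicates 1 to 3, with 13.8% to 18.2% mitochondrial counts, were at 32.0 to 39.1 CPM, and replicates 4 to 6, with 3.84% to 10.9%, at 19.7 to 24.6 CPM. Replicates 1 to 3 are also the libraries with Ddx3y above 1 CPM, and the part of either in this split was not tested. Over all 17 libraries, with each genotype's mean taken away, Lxn and the mitochondrial percentage had r = 0.75 (adjusted p = 0.0847). Spearman's rho was 0.44 (adjusted p = 0.312, both by permutation within genotypes). The means were 22.9 ± 1.97 (SD, n = 5), 16.9 ± 2.32 (SD, n = 6) and 29.0 ± 7.34 CPM (SD, n = 6) in WT, PS19 and CgA-KO/PS19.

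Ntng2 overlapped between all 3 genotypes. It measured 36.2, 27.5, 32.2, 15.3 and 25.4 CPM in WT, 16.0 to 22.0 CPM in PS19 (median 18.8) and 13.2 to 33.8 CPM in CgA-KO/PS19 (median 22.7). WT replicate 4, the shallowest library, and CgA-KO/PS19 replicate 6 were below every PS19 library. The means were 27.3 ± 7.92 (SD, n = 5), 18.9 ± 2.06 (SD, n = 6) and 23.6 ± 7.88 CPM (SD, n = 6).

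Lmo3 measured 140, 203, 224, 233 and 287 CPM in WT, and all 6 PS19 libraries were lower, at 86.5 to 123 CPM (median 94.1). CgA-KO/PS19 fell into separate clusters. Replicates 1 and 3, which resembled each other closely, were at 259 and 273 CPM, and replicates 2, 4, 5 and 6 were at 84.7, 85.5, 90.6 and 101 CPM, within or just under the PS19 range. The mean over all CgA-KO/PS19 libraries, 149 ± 90.9 CPM (SD, n = 6), was near none of them, whereas the WT mean was 217 ± 53.4 (SD, n = 5) and that of PS19 101 ± 15.2 CPM (SD, n = 6).

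**Figure D1:**
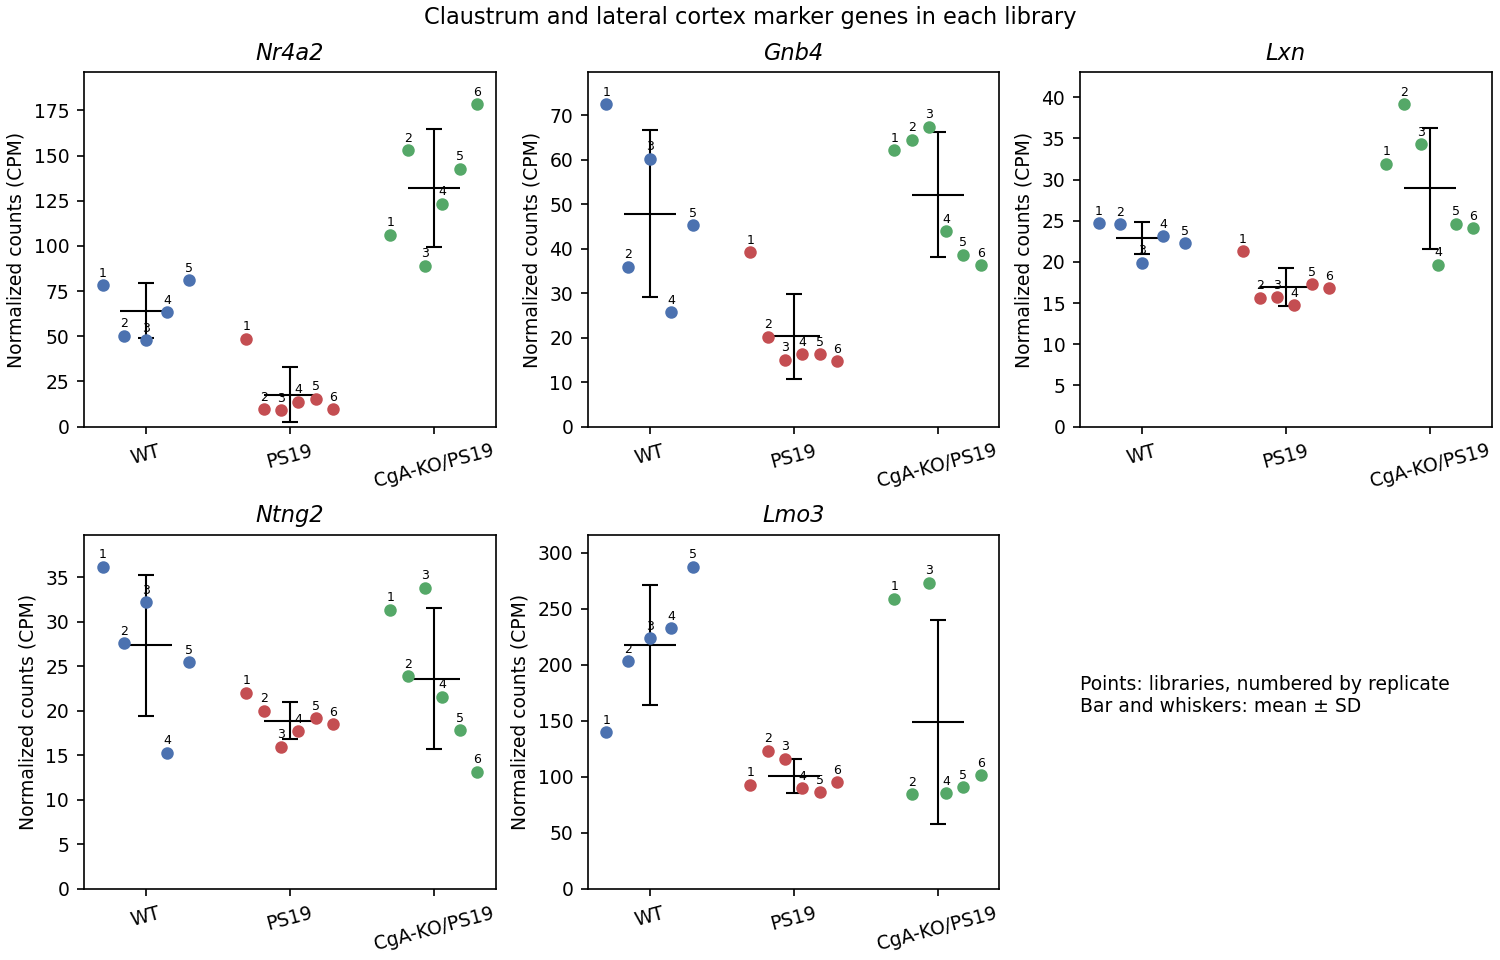
Normalized counts (CPM, linear axis from 0) of the 5 genes by genotype, 1 point per library with its replicate number, and bars for the mean ± SD (n = 5, 6 and 6). PS19 replicate 1 lies apart from the other PS19 libraries for Nr4a2 (48.7 CPM) and Gnb4 (39.3 CPM), and Lmo3 splits the CgA-KO/PS19 libraries into 2 near 266 CPM and 4 near 90.5 CPM.

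The libraries did not fully follow the description by which the genes were picked. PS19 was below every WT library for 1 of the 5 genes, Lmo3, where 4.39% of all tested genes had that arrangement. It was below every CgA-KO/PS19 library for 1 of 5, Nr4a2 (2.84% of all genes), and below every library of both for 0 of 5 (0.572% of all genes). Without PS19 replicate 1 the counts were 4 of 5 against WT (all but Ntng2; 5.76% of all genes), 3 of 5 against CgA-KO/PS19 (Nr4a2, Gnb4 and Lxn; 3.75%) and the same 3 against both (1.05%). Since these values chose the genes, the counts are read as a description only.

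As fitted log2 fold changes over PS19, WT was higher by 1.86 for Nr4a2, 1.25 for Gnb4, 1.11 for Lmo3, 0.54 for Ntng2 and 0.44 for Lxn. The corresponding CgA-KO/PS19 values were 2.90 for Nr4a2, 1.36 for Gnb4, 0.77 for Lxn, 0.57 for Lmo3 and 0.32 for Ntng2. The median over the 5 genes was 1.11 for WT and 0.77 for CgA-KO/PS19, beside -0.0097 and 0.026 over all genes. Both comparisons use the same PS19 libraries. In bulk tissue, fewer cells of a type and less RNA per cell cannot be told apart.

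Scaled to the length of the annotated exons, Lmo3 was the most abundant of the genes in WT (42.3 ± 10.4 CPM per kb), followed by Nr4a2 (15.8 ± 3.79), Lxn (15.2 ± 1.3), Ntng2 (6.85 ± 1.98) and Gnb4 (3.77 ± 1.47; SD, n = 5 each). Nr4a2 and Lxn, neighbours in that order, differed by less than their spread. In PS19 the order was Lmo3 (19.6 ± 2.97 CPM per kb), Lxn (11.2 ± 1.54), Ntng2 (4.73 ± 0.52), Nr4a2 (4.38 ± 3.78) and Gnb4 (1.60 ± 0.75; SD, n = 6 each), with Nr4a2 within the spread of Ntng2. In CgA-KO/PS19 Nr4a2 had the highest mean, 32.5 ± 8.00 CPM per kb, within the spread of Lmo3 at 29.0 ± 17.7, which in turn did not differ beyond it from Lxn at 19.2 ± 4.87 (SD, n = 6 each). Ntng2 (5.91 ± 1.98) and Gnb4 (4.11 ± 1.11) were last there too.

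WT against CgA-KO/PS19 compares mice without the transgene with mice that carry it and lack Chga. None of the 5 genes passed the correction over all genes (quasi-likelihood test in edgeR, Benjamini-Hochberg FDR under 0.05), where 2.89% of all tested genes were called higher and 3.56% lower in WT. Of these genes, 2 had an unadjusted p under 0.05, and limma voom called 0 of 5. Nr4a2 was nearest to the threshold (log2 fold change -1.04, standard error 0.37, 95% interval -1.82 to -0.26, adjusted p = 0.105). With DESeq2 it passed, at an adjusted p of 0.0379, and over the alternatives named in the closing section its edgeR call depended on which libraries entered the spread: without PS19 replicate 1, which is in neither genotype, the adjusted p was 0.00801.

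Lxn was next, with a log2 fold change of -0.34 (95% interval -0.66 to -0.02, adjusted p = 0.205 in the same edgeR test). Gnb4 had -0.12 (95% interval -0.72 to 0.48, adjusted p = 0.863) and Ntng2 0.22 (-0.25 to 0.68, adjusted p = 0.622). The interval of Gnb4 allows a difference of up to 0.72 log2 units, so equal levels were not shown. Lmo3 had 0.54 (-0.09 to 1.18, adjusted p = 0.316). Its CgA-KO/PS19 libraries lie in separate clusters, with replicates 1 and 3 inside the WT range and the other 4 below every WT library.

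**Figure D2:**
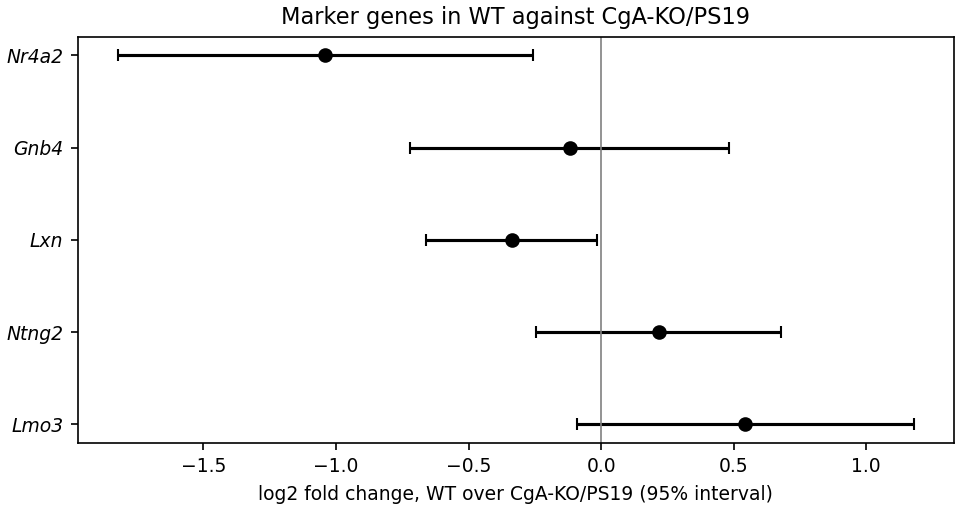
Fitted log2 fold change of WT over CgA-KO/PS19 for each gene (points) with its 95% interval (bars) from the edgeR fit to all 17 libraries. Nr4a2 (-1.04) and Lxn (-0.34) lie below 0 with intervals that do not reach it, and the intervals of Gnb4, Ntng2 and Lmo3 include 0.

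Striatum lies beside the claustrum, and its markers moved with the genotypes. All 14 striatum markers on the list were higher in WT than in PS19 (median log2 fold change 3.60, FDR under 0.05 in edgeR; 3.95% of all genes were called higher and 1.95% lower), for 10 CgA-KO/PS19 exceeded PS19 (median 2.22; 5.5% of all genes higher, 4.22% lower), and for 1, Penk, WT exceeded CgA-KO/PS19. Their summed level was 1145 to 3241 CPM in WT, 168 to 224 CPM for PS19 and 203 to 1822 CPM for CgA-KO/PS19. Isl1 was at 0 in all 6 PS19 libraries. Penk, the enkephalin precursor, averaged 514 CPM in WT and 32.5 CPM in PS19.

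The CgA-KO/PS19 libraries spanned that range among themselves. Replicates 1 and 3 had 1804 and 1822 CPM of striatum markers, replicate 2 had 435, and replicates 4, 5 and 6 had 203, 224 and 231 CPM, about the PS19 level. In replicates 4 to 6, Nr4a2 was 123, 143 and 178 CPM, all above the highest PS19 library. Gnb4 in these 3 libraries was 44.0, 38.6 and 36.3 CPM, above 5 of the 6 PS19 libraries, and Lxn was 19.7, 24.6 and 24.1 CPM, likewise above those 5. Ntng2 (21.6, 17.8 and 13.2 CPM) and Lmo3 (85.5, 90.6 and 101 CPM) overlapped PS19. At PS19 levels of striatum markers, Nr4a2 was as high as in the other CgA-KO/PS19 libraries, and Lmo3 was not above the PS19 range.

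With the striatum marker level as a covariate in the same fit, Nr4a2 kept its direction in both comparisons with PS19, and Lmo3 and Ntng2 turned, to log2 fold changes of -0.27 and -0.24 for WT and of -0.21 and -0.075 for CgA-KO/PS19. Gnb4 in WT went to 0.57 and Lxn to 0.08. Striatum marker levels of WT and PS19 did not overlap, so in that comparison genotype and the covariate cannot be told apart.

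**Figure D3:**
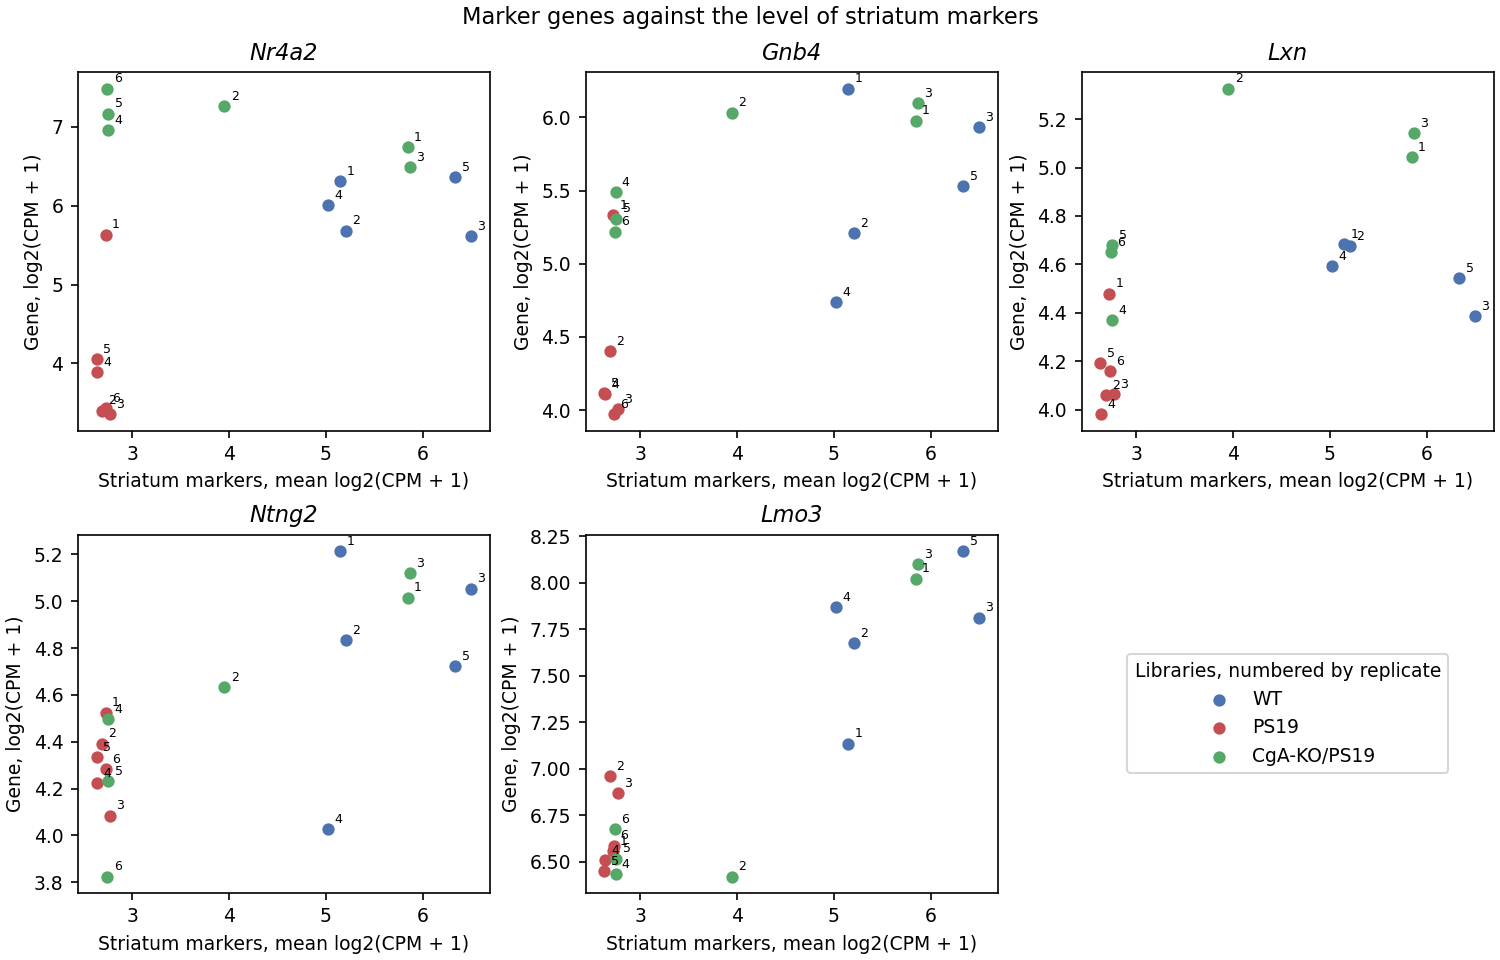
Level of each gene, as log2(CPM + 1), against the mean log2(CPM + 1) of the 14 striatum markers, 1 point per library, coloured by genotype and numbered by replicate. CgA-KO/PS19 replicates 4 to 6 share the low striatum marker levels of PS19 but have 123 to 178 CPM of Nr4a2, while their Lmo3 lies at the PS19 level.

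Other markers of the claustrum, the endopiriform nucleus beneath it and claustrum-like neurons of layer 6, listed for the same area, are no independent evidence, since the genes described here had been chosen on the same area and the same comparisons. Of 8 such genes, all tested, 5 were higher in WT than in PS19 and none lower (median log2 fold change 1.09), and 4 were higher in CgA-KO/PS19 (median 0.92). The 4 in both were Synpr, Oprk1, Car3 and Npsr1, and Nr2f2 was called in WT alone. The remaining 3, Gng2, Smim32 and Osr1, passed neither test.

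Car3, carbonic anhydrase 3, had a log2 fold change over PS19 of 2.15 in WT (adjusted p = 0.00132, edgeR with Benjamini-Hochberg adjustment) and 3.13 in CgA-KO/PS19 (adjusted p = 3.76e-05). It was rare, with WT at a mean of 0.635, PS19 at 0.158 and CgA-KO/PS19 at 1.31 CPM, and PS19 replicate 1 was again highest in its group at 0.364 CPM. Oprk1, the kappa opioid receptor, which striatal neurons also make, averaged 14.9, 2.73 and 11.9 CPM (log2 fold changes 2.46 and 2.13, adjusted p = 0.0193 and 0.028, same edgeR test). Synpr, the synaptic vesicle protein synaptoporin, averaged 150 CPM in WT, 67.6 CPM for PS19 and 143 CPM for CgA-KO/PS19 (1.15 and 1.08, adjusted p = 0.0165 and 0.0176). Npsr1, the neuropeptide S receptor, averaged 5.91, 3.01 and 5.01 CPM (0.97 and 0.73, adjusted p = 0.00668 and 0.0231).

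Nr2f2, the nuclear receptor COUP-TFII, was at 29.5, 73.3, 18.8, 89.5 and 99.3 CPM in WT, 13.4 to 18.5 CPM for PS19 and 22.2 to 28.3 CPM for CgA-KO/PS19. It was higher in WT than in PS19 (log2 fold change 2.00, adjusted p = 0.000917, edgeR) and than in CgA-KO/PS19 (1.24, adjusted p = 0.0206), the only 1 of the 8 called in that comparison. In CgA-KO/PS19 its 6 libraries were all above PS19, with a log2 fold change of 0.76 (adjusted p = 0.0945). That call in WT against CgA-KO/PS19 was lost without WT replicate 5, when 0 of 8 were called, and 2 of 8 were called without PS19 replicate 1. With the near-identical libraries averaged, 2 of 8 were called in WT and 1 of 8 in CgA-KO/PS19 over PS19, and without CgA-KO/PS19 replicates 1 and 3 the second count was 2.

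**Figure D4:**
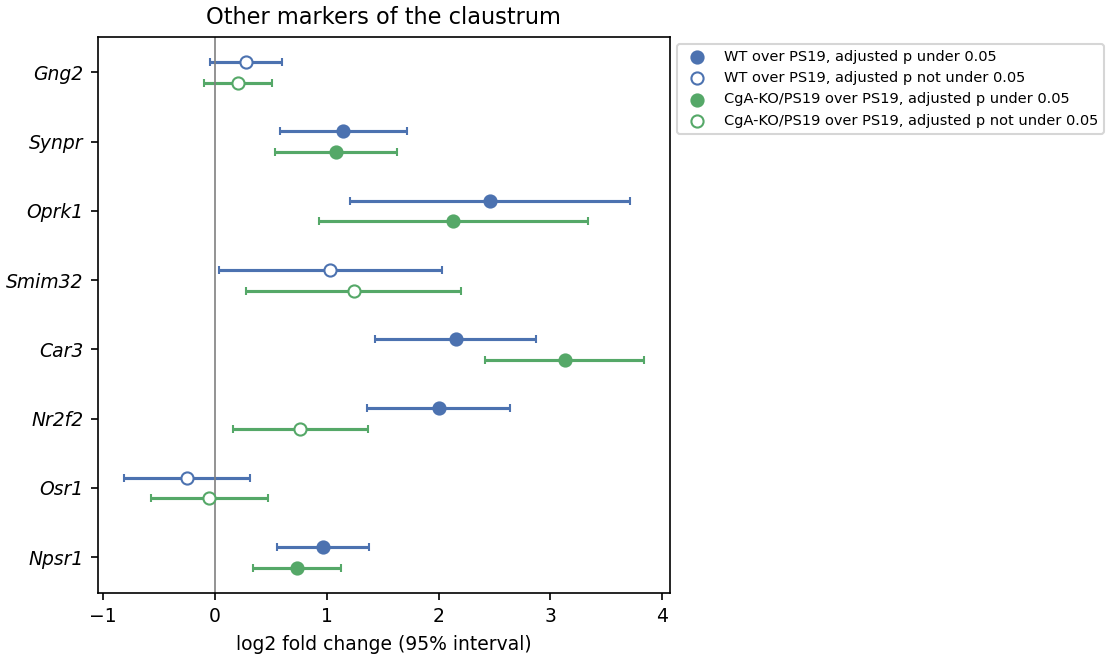
Fitted log2 fold change over PS19 of 8 other claustrum markers in WT (blue) and CgA-KO/PS19 (green), with 95% intervals; filled points passed an FDR of 0.05 in the edgeR test. Car3, Oprk1, Synpr and Npsr1 are filled in both, Nr2f2 (2.00 in WT, 0.76 in CgA-KO/PS19) in WT alone, and Osr1 lies near 0.

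Markers of neighbouring and related areas were counted in the same way. Of 5 layer 6b and subplate markers, 3 were higher in WT than in PS19 (Ctgf, Moxd1 and Nxph4) and 3 in CgA-KO/PS19 (Ctgf, Moxd1 and Lpar1). Ctgf, listed in the table under its newer symbol Ccn2, had log2 fold changes of 1.06 (adjusted p = 0.00564, edgeR) and 1.24 (adjusted p = 0.0022). Moxd1 had 1.33 and 0.69 (adjusted p = 0.000439 and 0.0203) and was also higher in WT than in CgA-KO/PS19, while Lpar1 was lower there. Lpar1 had log2 fold changes of -0.02 and 0.64, so it did not share the rise of Ctgf and Moxd1 in WT. Of 4 markers of the basolateral amygdala and lateral pallium, 3 were higher in WT than in PS19 and 2 in CgA-KO/PS19. The pair with the smallest p-values was Cyp26b1 (2.14 and 1.08 on the log2 scale) and Tfap2d (4.16 and 3.33). Tfap2d was rare: PS19 libraries held 0 to 0.255 CPM, while WT averaged 1.71 and CgA-KO/PS19 0.982. Rspo2 passed neither test and changed direction, with 0.34 for WT and -0.34 for CgA-KO/PS19 (unadjusted p = 0.0382 and 0.0281, edgeR).

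Cortical markers away from this area were counted as well. Of 7 general markers of cortical glutamatergic neurons, 1 was lower and none higher in WT than in PS19, with a median of -0.27, and the same was true of CgA-KO/PS19, with a median of -0.20. The gene was Emx1 (-0.94 and -0.86). Of 5 upper-layer markers, edgeR called Otof higher and Cux2 lower in WT, and DESeq2 and limma voom each called 4. Otof was also higher in CgA-KO/PS19 (0.95, adjusted p = 0.00978, edgeR), where DESeq2 and limma voom each called 2. The list medians were -0.37 and -0.16, with 1 of 5 positive in each comparison. Deep-layer markers leaned the way of the claustrum markers: 7 of 8 had positive log2 fold changes over PS19 in WT (median 0.93), of which edgeR called 4, DESeq2 6 and limma voom 7, and 7 of 8 were positive in CgA-KO/PS19 (median 0.66), of which edgeR called 1, DESeq2 3 and limma voom 4. Those called in WT by edgeR were Bcl11b, Foxp2, Crym and Pcp4 (0.91). Pcp4 was also the gene called in CgA-KO/PS19 (0.87). Fezf2, Tle4, Syt6 and Rprm were not called by edgeR in either comparison with PS19. Striatum markers were higher in WT than in PS19 as well. Striatal neurons also make Bcl11b, and the other deep-layer markers were not checked for this. The part of striatum in each of the deep-layer calls was not tested. None of the microglia (4) or endothelial (3) markers passed in edgeR in any comparison. Over the 3 comparisons, unadjusted p was under 0.05 in 2 cases in each list, DESeq2 called 0 in each, and limma voom called 2 and 1.

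Relatives of the 5 genes were counted by family. The other NR4A receptors and their RXR partners numbered 5, and only Rxrg, which is also expressed in striatum, was called by edgeR (log2 fold changes of 4.30 and 4.05 over PS19, adjusted p = 0.0159 and 0.0179). It ran from 2.74 to 48.3 CPM in WT (median 16.9), from 0.656 to 1.55 CPM for PS19 (median 1.24) and from 1.22 to 55.4 CPM for CgA-KO/PS19 (median 3.51), so CgA-KO/PS19 overlapped PS19. Rxra, Rxrb, Nr4a1 and Nr4a3 did not pass in edgeR in the 3 comparisons. In CgA-KO/PS19 against PS19, 2 more of the 5 had an unadjusted p under 0.05 (Nr4a3 and Rxrb). DESeq2 and limma voom each called 2 of the 5 in that comparison, 1 in WT against PS19 and 0 in WT against CgA-KO/PS19. The mean of Nr4a1 was 84.5 for WT, 108 for PS19 and 177 CPM for CgA-KO/PS19.

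Nr4a1 and Nr4a3 followed another arrangement than Nr4a2. Both respond rapidly to neuronal activity. In CgA-KO/PS19, Nr4a1 was 26.6, 73.9 and 27.7 CPM in replicates 1 to 3 and 355, 330 and 247 CPM in replicates 4 to 6, and Nr4a3 was 27.9, 19.6 and 27.0 CPM against 120, 121 and 127 CPM. The summed level of 12 immediate early genes outside the family was 514 to 1188 CPM in the first 3 of these libraries and 2523 to 3237 CPM in the last 3. This split is the same as that by Ddx3y, which was above 1 CPM in replicates 1 to 3, so the 2 cannot be told apart. Nr4a2 was 89.1 to 153 CPM in the first 3 and 123 to 178 CPM in the last 3, above PS19 in each. In PS19, Nr4a1 was 51.8 to 152 CPM and overlapped WT at 37.8 to 123 CPM.

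None of the 12 immediate early genes passed in edgeR in any comparison, although 3 had an unadjusted p under 0.05 in CgA-KO/PS19 against PS19 and 5 in WT against CgA-KO/PS19, and DESeq2 called 1 in each of these and limma voom 0. Their median log2 fold change over PS19 was -0.15 for WT and 0.58 for CgA-KO/PS19, where 11 of 12 were positive, and WT over CgA-KO/PS19 gave negative values for all 12 (median -0.77). The smallest p-values in WT against PS19 belonged to Ier2 (-0.98, adjusted p = 0.265, edgeR) and Arc (-0.84, adjusted p = 0.481). With each genotype's mean taken away, Nr4a2 and the mean level of these 12 genes had r = 0.37 (adjusted p = 0.191). Spearman's rho was 0.42 (adjusted p = 0.206, both by permutation within genotypes). The part of immediate early gene levels in the Nr4a2 difference between genotypes was not tested. With log2 of the total count, Nr4a2 had r = -0.53 (adjusted p = 0.0584) and rho = -0.59 (adjusted p = 0.0801, same permutation). Without the 2 libraries farthest from the median r was -0.69. PS19 replicate 1, highest of its group for Nr4a2, had the fewest counts of the PS19 libraries (53271515). The part of depth in the Nr4a2 levels was not tested either.

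**Figure D5:**
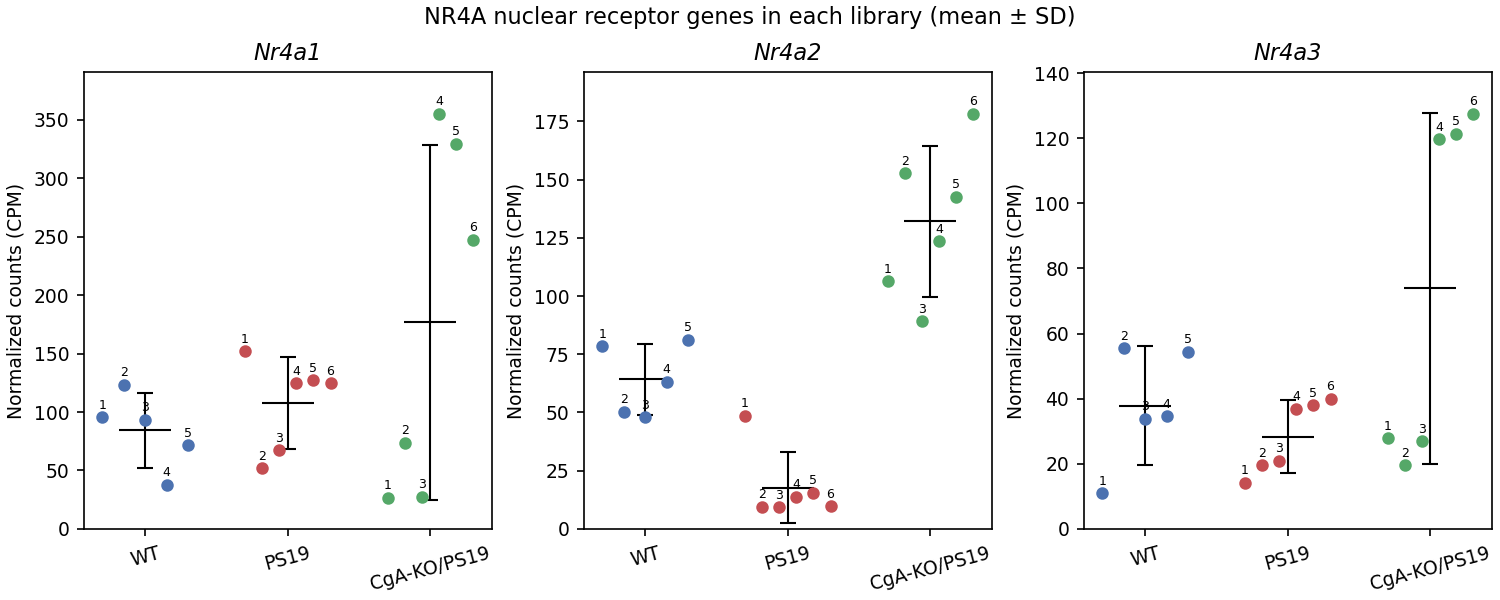
Normalized counts (CPM, linear axes from 0) of Nr4a1, Nr4a2 and Nr4a3 by genotype, 1 point per library with its replicate number and bars for the mean ± SD. Nr4a1 and Nr4a3 are high in CgA-KO/PS19 replicates 4 to 6 alone, whereas Nr4a2 is at 89.1 CPM or more in all 6 CgA-KO/PS19 libraries.

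For the G protein β, LIM-only and latexin lists below, no gene tested had an unadjusted p under 0.05 in edgeR (0 cases) or was called by DESeq2 or limma voom (0). None of the 3 other G protein β subunit genes with enough counts, Gnb1, Gnb2 and Gnb5, passed in any comparison, with log2 fold changes of -0.18 to 0.13 in WT and -0.33 to -0.11 in CgA-KO/PS19 over PS19. Of 11 γ subunit genes tested, Gng4 was higher in WT (0.74), and Gng5 and Gng12 were higher in CgA-KO/PS19 (0.65 and 0.55). Both were also lower in WT than in CgA-KO/PS19 (-0.70 and -0.64, adjusted p = 0.0403 and 0.00575, edgeR). Over the γ genes DESeq2 called 1, 5 and 4 in the 3 comparisons and limma voom 3, 4 and 3. Ntng1, the closest relative of Ntng2, was higher in WT than in PS19 (log2 fold change 0.73, adjusted p = 0.00364, edgeR) and than in CgA-KO/PS19 (0.93, adjusted p = 0.000959), while Lrrc4, Lrrc4b and Lrrc4c, the netrin-G ligand genes, passed nowhere. Lmo1, Lmo2, Lmo4, Ldb1 and Ldb2 also passed nowhere, and neither did the 4 genes with enough counts among 9 related to latexin and the carboxypeptidases it could inhibit.

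Within genotypes the 5 genes did not vary as a single block. With each genotype's mean taken away from log2(CPM + 1) over the 17 libraries, Gnb4 and Ntng2 varied together (Pearson's r = 0.80, adjusted p = 0.0007; Spearman's rho = 0.87, adjusted p = 0.0021; permutation within genotypes, two-sided), and r was 0.86 without the 2 libraries farthest from the median. Both also followed the mean level of the 8 other claustrum markers: Gnb4 with r = 0.89 (adjusted p = 0.0007) and rho = 0.86 (adjusted p = 0.0028), and Ntng2 with r = 0.74 (adjusted p = 0.000933) and rho = 0.80 (adjusted p = 0.00397), again by permutation. Without the 2 farthest libraries these were 0.81 and 0.73. They were the 3 of 35 relations whose adjusted p was under 0.05. Both values of a point share the preparation and depth of their library, and near-identical libraries are counted apiece. Depth ran from 8838334 to 227651681 counts and was not taken out of these relations. Gnb4 and Ntng2 were lowest of their group in WT replicate 4 and CgA-KO/PS19 replicate 6, the shallowest libraries of those genotypes. In PS19 replicate 1, the shallowest of its group, both were highest.

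Pooled over the genotypes, Nr4a2 stood outside that relation. Its r with the other claustrum markers was 0.27 (adjusted p = 0.498) and rho was -0.03 (adjusted p = 0.923, permutation), and its relation with Gnb4 went from 0.41 to -0.12 without the 2 farthest libraries. The genotypes differed: r of Nr4a2 with Gnb4 and with Ntng2 was 0.90 and 0.73 in PS19. It was -0.66 and -0.90 in CgA-KO/PS19, and 0.19 and -0.02 in WT. PS19 replicate 1 was the highest PS19 library for each of these genes, and these values carry no test. Lmo3 split CgA-KO/PS19 into clusters, so no pooled correlation is given for it.

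Among 15473 genes with a mean of at least 1 CPM, the gene whose variation within genotypes was most like that of Gnb4 was Smim32, one of the other claustrum markers (r = 0.92, rho = 0.90, 17 libraries), followed by Rsad2 (0.89) and Zfp688 (0.87). For Nr4a2 the nearest were Cdip1 (0.84), Rsrp1 (0.82) and Dlx1 (0.82). For Lxn they were 9330162G02Rik (0.89), Gm44562 (0.87) and Gm37090 (0.85), and for Ntng2 Nat8f4 (0.96), Ccdc13 (0.96) and Cenpb (0.95). Tacr1, Krt9 and Dchs2 came nearest to Lmo3 in the same pooled ranking. That ranking includes the split of Lmo3 within CgA-KO/PS19, so their values are left out. These are the highest of many values and carry no test.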

How the data were processed

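Cortical RNA of 17 mice (5 WT, 6 PS19 and 6 CgA-KO/PS19) was analysed from 1 table of whole-number counts per gene, which the authors deposited without normalization. Per the labels and Methods, reads were trimmed with Trimmomatic 0.39, aligned to mm10 with STAR 2.7.10b and quantified with StringTie 1.3.6, whose coverage prepDE turned into counts. The commonest count above 0 was 3 in 13 libraries and 1 in 4, so counts are not numbers of fragments, and low counts look more precise than they are. The annotation release and strand setting are not given in the sources used here, and overlapping genes are uncertain. Of 56953 identifiers, 52029 matched GENCODE M21 without the version.

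Counts were analysed with edgeR 4.0.16 in R 4.3.3: TMM, filterByExpr, a quasi-likelihood fit of all 17 libraries with 1 mean per genotype, and Benjamini-Hochberg adjustment over 23062 genes. The members and lists were chosen with earlier results of these data known. Named are the 5 genes, other claustrum markers and relatives with counts, the 2 genes per other list with the smallest p in WT against PS19 where a list is discussed, and the 3 nearest genes each. Further genes in the text, among them Penk, Isl1, Nxph4, Lpar1 and the γ subunit genes, were named after their values were seen. Correlations used 100000 permutations within genotypes, adjusted over 35 relations, and their p-values were added after the data had been seen. The edgeR, DESeq2 1.42.0 and limma 3.58.1 fits were tested on simulated data. Tables used Python 3.11.15 with pandas 2.3.3, numpy 2.4.6 and scipy 1.17.1, and plots used matplotlib 3.10.9. There were 13 alternatives, and 2 that left out pairs of libraries were added after seeing the data. Mouse promoter windows are from RefSeq, GRCm38.p6.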

Additional observations from a re-analysis of the deposited data

Results flagged for a closer look

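Single libraries stood apart in 5 of the 39 sets of libraries (13 genes in 3 genotypes) checked with Dixon's criterion, which chance alone meets in about 1 in 20. In PS19 replicate 1, Nr4a2 was at 48.7 CPM, Gnb4 at 39.3 CPM, Smim32 at 7.45 CPM and Car3 at 0.364 CPM, each the highest of the 6 PS19 libraries and distant from the rest. These 4 values come from 1 library and are not independent. In WT replicate 1, Osr1 was at 1.13 CPM, the lowest of the 5 WT libraries. The striatum marker level of PS19 replicate 1, 202 CPM summed over 14 genes, was within the range of the other PS19 libraries.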

How the results depend on the processing

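Counts of genes with an FDR under 0.05 (1361 in WT against PS19, 2242 in CgA-KO/PS19 against PS19 and 1489 in WT against CgA-KO/PS19) depended strongly on the fit, in that order: 2396, 3958 and 2564 with DESeq2, 3967, 5229 and 2458 with limma voom, 3757, 1110 and 5028 with the striatum covariate, and 430, 156 and 577 with the near-identical libraries averaged. Fitting only the genotypes compared gave 2275 in the first and 266 in the last, and leaving out CgA-KO/PS19 replicates 1 and 3 gave 718 in the second. With single libraries left out they ran from 632 (without WT replicate 5) to 1658, from 1019 (without CgA-KO/PS19 replicate 2) to 3822 (without CgA-KO/PS19 replicate 4), and from 627 (without WT replicate 5) to 2099. The cause was not tested.

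Of the 5 genes, 0 were called in WT against CgA-KO/PS19, and 1 was called with DESeq2 (Nr4a2, -1.05), with only the 2 genotypes fitted (Nr4a2, adjusted p = 0.0324, edgeR), with the striatum covariate (Lxn, -0.52, adjusted p = 0.0358, edgeR), without PS19 replicate 1 and WT replicate 4 (Nr4a2, adjusted p = 0.0126), and without CgA-KO/PS19 replicates 1 and 3 (Lmo3, 1.26). These 2 are the CgA-KO/PS19 libraries with high Lmo3, so the last call follows from leaving them out and supports nothing. With single libraries left out it was 0 to 1. The log2 fold change of Nr4a2 kept its sign in every alternative, with adjusted p from 0.00801 to 0.275. Against PS19, only the striatum covariate (Ntng2 -0.24 and -0.075, Lmo3 -0.27 and -0.21) and leaving out CgA-KO/PS19 replicates 1 and 3 (Lmo3 -0.16) turned a sign among the alternatives run.

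Of the 8 other claustrum markers, 5, 4 and 1 were called in the 3 comparisons. With averaged libraries the counts were 2, 1 and 0, and without CgA-KO/PS19 replicates 1 and 3 the second was 2 and the third 0. The third was 2 with DESeq2, the striatum covariate or without PS19 replicate 1 and WT replicate 4, and 0 with only the 2 genotypes fitted. With single libraries left out they were 4 to 6, 3 to 5 and 0 to 2.

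Replicate numbers did not pair the libraries: deviations correlated above 0.1 in 2 of 16 pairs with the same number, and 2 of 16 correlated best with their own number. With the replicate number as a block, 660, 654 and 614 genes were called, and 0 of the 8 claustrum markers in the third comparison. Depth limits WT replicate 4 most.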

Other observations

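Inhibitory and glial markers moved in other arrangements than the claustrum markers. Of 6 interneuron markers, Pvalb was lower in both WT and CgA-KO/PS19 than in PS19 (means 27.1, 37.8 and 69.6 CPM; log2 fold changes -1.37 and -0.88, adjusted p = 0.00244 and 0.0219, edgeR). Gad1 (-0.78, adjusted p = 0.00761, edgeR) and Slc32a1 (-0.62, adjusted p = 0.0367) were also lower in CgA-KO/PS19 than in PS19, so 3 of the 6 were called there, and the fold changes of all 6 were negative. Gad2 was higher in WT than in PS19 (0.62, adjusted p = 0.0202), and 4 of the 6 (Gad1, Gad2, Slc32a1 and Sst) were higher in WT than in CgA-KO/PS19. Of 6 oligodendrocyte markers, Mobp had more counts in CgA-KO/PS19 than PS19 (1.37, adjusted p = 0.00842), and Mobp and Mbp were lower in WT than in CgA-KO/PS19. Of 4 astrocyte markers, Aldh1l1 was lower in WT than in PS19 (-0.76, adjusted p = 0.0166), and Aqp4 and Slc1a3 were higher in CgA-KO/PS19. None of the 3 midbrain dopamine neuron markers with enough counts (Th, Slc18a2 and Ddc) passed in edgeR in any comparison (3 cases with an unadjusted p under 0.05 over the 3 comparisons, and 2 calls each by DESeq2 and limma voom), and Th averaged 3.82, 1.24 and 1.03 CPM in WT, PS19 and CgA-KO/PS19.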
